A study of Bos taurus with 8 samples.

Results

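Amino acid transporters of the solute carrier families SLC1, SLC6, SLC7, SLC36, SLC38 and SLC43 were followed in bovine granulosa cells. The genes were collected by symbol, with the light chain SLC7A5 left out of the group, and each was represented by its probe set with the highest mean intensity. This gave 53 genes out of 18010 genes with a single symbol on the array, carried by 54 of 26773 probe sets, since only SLC38A9 had a further probe set. All 53 symbols were those of the same gene in the current RefSeq annotation. SLC1 held 7 genes, SLC6 18, SLC7 11, SLC36 4, SLC38 10 and SLC43 3.

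Granulosa cells, the follicle's inner somatic layer, which turns androgen into estrogen, came from the dominant follicle of 4 High A4 cows and 4 Control cows (titled LowA4 in the labels). The mean androstenedione (A4) content of the follicles was 356 ng/mL in High A4 and 1.9 ng/mL in Control. All were beef cows of mixed breed (Red Angus 75%, MARC III 25%) whose cycles had been synchronized with gonadotropin releasing hormone, a progesterone device for 7 days and prostaglandin F2alpha, and the ovaries were taken about 36 hours after the device was removed. Mural and cumulus granulosa cells were not separated, the stated purity was at least 94%, and no animal's age is given in the sources used here. Cows were not treated with androgen: they were classed by the A4 of their own follicles and taken from the ends of that range, so A4 content and anything else that differs between such cows cannot be told apart. Each cow had 1 Affymetrix Bovine Gene 1.0 ST array, and arrays therefore differ as the animals do.

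Cells take up amino acids through carriers that differ in what they move and in what drives them. Carriers of SLC1, SLC6 and SLC38 mostly use the sodium gradient and those of SLC36 mostly protons. Most of SLC7 and SLC43 exchange or let pass amino acids down their gradient. The SLC7 light chains reach the membrane only when bound to a heavy chain, SLC3A2 (4F2hc) or SLC3A1. In the follicle the granulosa and cumulus cells take up amino acids and hand them to the oocyte through gap junctions, as is known from the mouse for the cumulus carrier SLC38A3.

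Intensities are in arbitrary units on a linear scale. The study treats a mean of 100 as its noise threshold, and 12 of the 53 genes had a mean above 100 in at least 1 group. Of these, 9 had both means above 100, and 3 (SLC36A1, SLC38A6 and SLC38A7) passed only through the Control mean. The other 41 genes lay below the threshold in both groups. The groups were compared with limma on log2 intensity over all 10120 probe sets above the threshold, with Benjamini-Hochberg adjustment over all of them. Genes below it were taken from the same fit over all 26773 probe sets. High A4 arrays had 9065 to 9403 probe sets above 100 and Control arrays 9551 to 9687. Levels of different genes were not set against each other, since probe sets differ in brightness for the same amount of RNA, and the number of arrays limits the precision.

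Markers of granulosa cells were present, while some markers of theca and connective tissue were brighter in High A4. All 10 granulosa markers (among them FSHR, CYP19A1 and FOXL2) were above the threshold, 0 passed in limma, and none reached an unadjusted p under 0.05. Of 4 theca markers CYP17A1 rose, and of 4 fibroblast and stroma markers above the threshold DCN and OGN rose. By the same measure 1.56% of all probe sets above the threshold were higher. OGN was above the threshold only through its High A4 mean (107, against 37.5 in Control), so the filter had set its positive sign. Positive log2 fold changes were found in 2 of the 4 theca markers and in 7 of the 8 fibroblast and stroma markers. The exceptions, none of which passed, were PTCH1 (-0.14) and NR2F2 (-0.18) of theca and the dim TCF21 (-0.29) of stroma. The summed intensity of the 8 fibroblast and stroma markers was 1703 to 3217 in High A4 and 672 to 2426 in Control. The sum of the 4 theca markers was 1655 to 4422 in High A4 and 775 to 1629 in Control. These sums weigh the brightest probe sets most, which by group mean were LUM for stroma and INSL3 for theca. All markers of endothelium, smooth muscle, leukocytes, oocyte and red blood cells were below the threshold in both groups. In limma without the noise filter, 6 of the 32 markers below the threshold (18.75%) were higher in High A4 at an adjusted p under 0.05 and 0 were lower, where 12.2% of all probe sets below the threshold were higher and 1.12% lower. The 6 were COL3A1 (log2 fold change 1.31, adjusted p = 0.000647) and COL1A2 (0.70, 0.0277) of the stroma, EMCN (1.35, 0.0014) of endothelium, RGS5 (0.87, 0.00864) of pericytes, BMP15 (0.73, 0.0087) of the oocyte and HBB (0.82, 0.00671) of red blood cells. MYH11 of smooth muscle was lower in High A4 without overlap but did not pass (-0.31, adjusted p = 0.149 from limma without the noise filter). The summed intensity of the oocyte markers was 109.9 to 133 in High A4 and 93.1 to 103 in Control, without overlap. Single probe sets below the threshold had a median log2 fold change of 0.11, and 16.2% of them were higher without overlap. The sums overlapped for endothelium (209 to 260.0 in High A4, 178 to 251 in Control), smooth muscle and pericytes (254 to 389 in High A4, 263 to 320 in Control), leukocytes (305 to 547 in High A4, 270 to 527 in Control) and red blood cells (84.1 to 155 in High A4, 75.7 to 90.6 in Control). The part of these cells in the values below was not tested, and fewer cells of a type cannot be told apart from less RNA per cell.

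None of the 12 transporter genes above the noise threshold passed in either direction at an adjusted p under 0.05 in limma. Of the 10120 probe sets tested, 1.56% were higher and 0.623% lower by that measure. At an unadjusted p under 0.05, SLC7A2 was higher in High A4 and SLC38A9 lower, where 4.83% of all probe sets tested were higher and 17.1% lower by this measure. By the study's criterion, which joins an unadjusted p under 0.05 to a fold change over 1.5, 0 of the 12 were higher (background 3.2%) and 0 were lower (background 6.23%). The groups did not overlap in 0 of the 12, where 2.93% of all probe sets tested were higher and 10.4% lower without overlap. An analysis of variance without moderation also gave 0 at an adjusted p under 0.05. The largest fold change among the 12 was 1.43. The outermost bounds of their 95% intervals, not adjusted for the number of genes, were log2 fold changes of -1.02 and 1.0. With 4 cows a group, changes of up to these sizes thus lay within the interval of some of the genes. Of the 12, 5 had a positive and 7 a negative log2 fold change, with a median of -0.18, and over all probe sets tested the median was -0.16 and 74.3% were negative. The negative sign of SLC36A1, SLC38A6 and SLC38A7 was set by the filter, since their High A4 means were below 100.

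**Figure D1:**
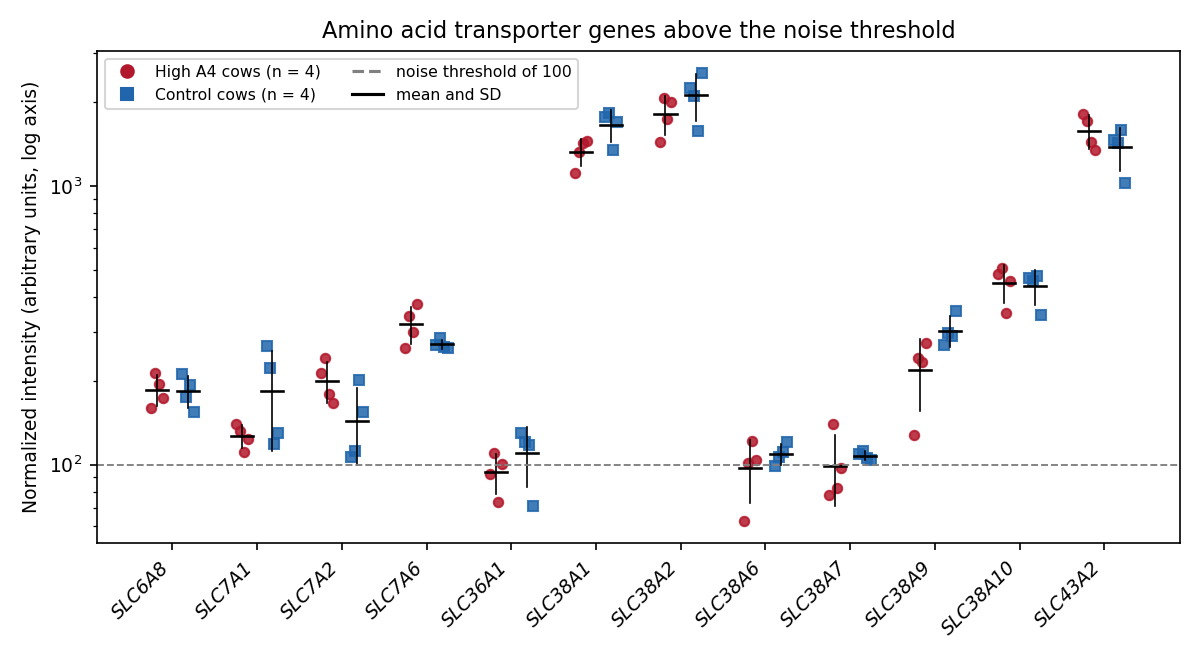
Normalized intensity (log axis, arbitrary units) of the 12 transporter genes above the noise threshold, with a point for each cow in order of replicate number from left to right, the 4 High A4 cows left of the 4 Control cows for each gene. Horizontal bars are means, vertical lines are SDs and the dashed line is the threshold of 100. The groups overlap in all 12 genes, and High A4 replicate 1 is the lowest cow for SLC38A9 at 127.5.

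None of the sodium-coupled SLC38 carriers above the threshold passed. Levels of SLC38A1 (SNAT1), which imports glutamine and small neutral amino acids, were 1115, 1328, 1423 and 1445 in High A4 and 1770.5, 1825, 1345 and 1692 in Control. A single Control cow, replicate 3, lay within the range of the High A4 cows. The log2 fold change was -0.32 (standard error 0.15, 95% interval -0.65 to 0.010, adjusted p = 0.239 from limma), so SLC38A1 did not pass. SLC38A2 (SNAT2), the carrier that cells raise when amino acids are scarce, had 1441, 2069, 1741 and 2000.0 in High A4 and 2248, 2097, 1577 and 2541 in Control. Its groups overlapped over most of their range, and the log2 fold change was -0.22 (standard error 0.18, 95% interval -0.62 to 0.19, adjusted p = 0.481 from limma).

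SLC38A9, a lysosomal arginine carrier that reports amino acid supply to the mTORC1 kinase complex, had 127.5, 241, 233 and 273 in High A4, against 270, 296, 289 and 356 in Control. High A4 replicate 1 was far below the other cows, and of the others only High A4 replicate 4 reached the Control range. The log2 fold change was -0.52 (standard error 0.23, unadjusted p = 0.0456, adjusted p = 0.219 from limma) and -0.28 without High A4 replicate 1. The second probe set of SLC38A9 had 124, 103, 108 and 130 in High A4 and 114, 124, 123 and 175 in Control. Its log2 fold change was -0.19 (adjusted p = 0.491 from limma). Both probe sets had a lower mean in High A4, and neither passed.

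The remaining SLC38 genes above the threshold differed by less than the SD of the High A4 cows. SLC38A7, a glutamine carrier of the lysosome, was at 99.2 ± 28.1 in High A4 cows and 108 ± 3.75 in Control cows (SD with n = 4 per group, log2 fold change -0.16, adjusted p = 0.612 from limma). Its High A4 cows ran from 77.7 to 139, around the narrow Control range of 104 to 112. SLC38A10 averaged 450 ± 69.6 in High A4 cows and 436 ± 61.5 in Control cows (SD with n = 4 per group, log2 fold change 0.042), a difference whose sign turned with median centring of the arrays. SLC38A6 was at 97.5 ± 24.8 in High A4 cows and 109 ± 9.14 in Control cows (SD with n = 4 per group, log2 fold change -0.20, adjusted p = 0.551 from limma). Of the 6 SLC38 genes above the threshold, 5 had a negative log2 fold change, as did 74.3% of all probe sets tested, and the filter had set the sign of SLC38A6 and SLC38A7.

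SLC38 also held the dim transporters with the lowest adjusted p. SLC38A11, a little studied member of the family, had 26.9, 21.4, 31.0 and 20.4 in High A4, against 11.1, 10.03, 11.5 and 11.1 in Control. Every High A4 cow was above every Control cow, and the Control cows lay close together. The log2 fold change was 1.17 (standard error 0.16, 95% interval 0.81 to 1.53, adjusted p = 0.0012 from limma without the noise filter). SLC38A4 (SNAT4), a carrier of neutral amino acids known from liver and placenta, had 25.0, 16.8, 25.3 and 22.6 in High A4, against 12.6, 13.6, 11.9 and 10.6 in Control. These groups did not overlap either, and the log2 fold change was 0.87 (standard error 0.17, adjusted p = 0.00787 from limma without the noise filter). Its call was lost with quantile normalization (0.53, adjusted p = 0.0816). In the RefSeq gene order SLC38A4, SLC38A2 and SLC38A1 are direct neighbours, and SLC38A2 and SLC38A1 had log2 fold changes of the opposite sign that did not pass. SLC38A3, the cumulus cell carrier of the mouse, was at 40.7 ± 3.42 in High A4 cows and 39.0 ± 6.13 in Control cows (SD with n = 4 per group, log2 fold change 0.071), and SLC38A5 had a log2 fold change of 0.035. Both signs turned with median centring, quantile normalization and cyclic loess.

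Cationic amino acid carriers of SLC7 moved in different directions without passing. SLC7A2 (CAT2), an arginine and lysine carrier, had 213, 242, 180.0 and 166 in High A4, against 107, 112, 202 and 155 in Control. All High A4 cows were above 3 of the Control cows, and Control replicate 3 lay among them. The log2 fold change was 0.51 (standard error 0.22, 95% interval 0.027 to 1.0, unadjusted p = 0.0406, adjusted p = 0.21 from limma). SLC7A1 (CAT1), the widely expressed carrier of the same substrates, had 139.7, 132, 111 and 124 in High A4, against 268, 222, 118 and 129.9 in Control. Control replicates 1 and 2 stood above all other cows, and replicates 3 and 4 lay within the High A4 range. The log2 fold change was -0.46 (standard error 0.25, 95% interval -1.02 to 0.10, adjusted p = 0.299 from limma). SLC7A3 (CAT3) was below the threshold with a log2 fold change of 0.21 (adjusted p = 0.528 from limma without the noise filter), or -0.012 with quantile normalization. SLC7A4, of the same branch of SLC7, was dim too and had 0.13 (adjusted p = 0.696 from limma without the noise filter). SLC7A14, a relative of these carriers known mainly from brain and retina, had 22.3, 28.0, 27.4 and 19.9 in High A4 and 19.1, 14.9, 14.9 and 16.4 in Control. The groups did not overlap but nearly met, at High A4 replicate 4 and Control replicate 1, and the log2 fold change was 0.57 (adjusted p = 0.0493 from limma without the noise filter). The call held only without High A4 replicate 4 when single cows were left out, with adjusted p of 0.0569 to 0.144 without any other cow. Of the other alternatives it held only with array weights (0.0242), and quantile normalization gave a log2 fold change of 0.25 with an adjusted p of 0.359.

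The SLC7 light chains were mostly dim. SLC7A6 (y+LAT2), which exchanges cationic for neutral amino acids, was the only light chain among the 53 genes above the threshold, with 262, 341, 299 and 376 in High A4 and 269, 285, 265 and 263 in Control. High A4 replicates 2, 3 and 4 were above all Control cows, and replicate 1 was below them. Its log2 fold change was 0.23 (standard error 0.14, adjusted p = 0.348 from limma). SLC7A11 (xCT), the cystine importer that feeds glutathione synthesis, had 55.7, 40.0, 55.4 and 40.8 in High A4, against 68.7, 51.2, 16.4 and 31.3 in Control. Its Control cows spanned a wider range than its High A4 cows, and the log2 fold change of 0.37 had a 95% interval of -0.46 to 1.20. SLC7A9, the partner of SLC3A1 in the transport of cystine, had 21.0 ± 1.63 in High A4 cows and 16.8 ± 1.37 in Control cows (SD with n = 4 per group). Its groups did not overlap, but its log2 fold change of 0.32 had an adjusted p of 0.167 in limma without the noise filter and was -0.022 with quantile normalization. SLC7A7 (-0.31), SLC7A8 (0.24) and SLC7A10 (-0.23), given as log2 fold changes, did not pass.

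The heavy chains, and the light chain outside the group, did not pass and differed in direction. SLC3A2 had 349, 359, 367 and 397 in High A4, against 472, 454, 486 and 479 in Control. All High A4 cows were below all Control cows, as in 10.4% of the probe sets above the threshold. Its log2 fold change was -0.36 (standard error 0.11, unadjusted p = 0.00904, adjusted p = 0.125 from limma), and it passed only with array weights (adjusted p = 0.0486) and with the analysis of variance (adjusted p = 0.0242). The dim heavy chain SLC3A1 had 19.7, 14.1, 20.6 and 18.5 in High A4, against 13.9, 12.0, 10.2 and 12.5 in Control. These groups nearly met without overlap, and the log2 fold change was 0.58 (unadjusted p = 0.00517, adjusted p = 0.0507 from limma without the noise filter). SLC7A5 (LAT1), which imports leucine and other large neutral amino acids bound to SLC3A2, had 45.9, 78.3, 64.0 and 77.0 in High A4, against 190, 161, 113 and 76.5 in Control. SLC7A5 was above the threshold only through its Control mean (135, against 66.3 in High A4), so the filter had set its negative sign. Control replicate 4 lay within the High A4 range, and the log2 fold change was -0.97 (standard error 0.28, unadjusted p = 0.00629, adjusted p = 0.108 from limma). Without Control replicate 4 it was -1.22 with an adjusted p of 0.0467, and with array weights -1.15 with an adjusted p of 0.0139.

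SLC1 had no gene above the threshold and none that passed without the filter. SLC1A4 (ASCT1), an exchanger of alanine, serine and cysteine, had 27.9, 36.7, 37.5 and 31.6 in High A4, against 142, 107, 46.5 and 31.4 in Control. Control replicates 1 and 2 were high, and replicates 3 and 4 were near the High A4 cows. The log2 fold change was -1.05 (standard error 0.41, unadjusted p = 0.0278, adjusted p = 0.143 from limma without the noise filter), and it passed only without Control replicate 4 (-1.42, adjusted p = 0.0337). SLC1A5 (ASCT2), the glutamine exchanger, had 26.3 ± 6.01 in High A4 cows and 35.8 ± 8.08 in Control cows (SD with n = 4 per group, log2 fold change -0.44, adjusted p = 0.256 from limma without the noise filter). Among the glutamate carriers, SLC1A1 (EAAT3) had 15.7, 12.7, 17.6 and 14.6 in High A4 and 12.3, 10.4, 11.9 and 10.6 in Control, without overlap. SLC1A3 (EAAT1) was at 55.6 ± 8.62 in High A4 cows and 41.6 ± 9.50 in Control cows (SD with n = 4 per group). Their log2 fold changes of 0.42 and 0.43 had adjusted p of 0.105 and 0.189 in limma without the noise filter, and that of SLC1A1 was 0.044 with quantile normalization and 0.18 with cyclic loess. SLC1A2, SLC1A6 and SLC1A7 had log2 fold changes between -0.21 and 0.28 and did not pass.

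**Figure D2:**
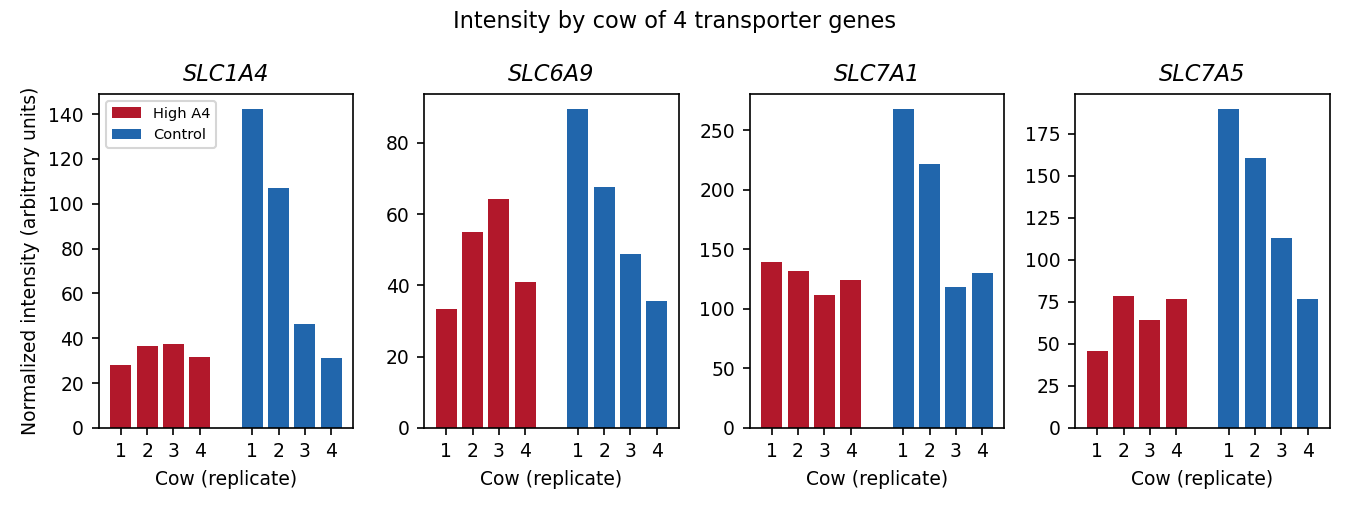
Normalized intensity (arbitrary units, linear axes from 0, a separate axis for each gene) of SLC1A4, SLC6A9, SLC7A1 and SLC7A5 in each cow, the 4 High A4 cows left of the 4 Control cows. Control replicates 1 and 2 are the highest cows in all 4 genes, and Control replicate 4 lies within or near the High A4 range. These are selected genes. Control replicates 1 and 2 were both above Control replicates 3 and 4 in 16 of the 53 transporter genes.

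SLC6 had 1 gene above the threshold, the creatine carrier SLC6A8. It had 159, 214, 195 and 174 in High A4 and 211, 176, 193 and 155 in Control. The groups covered the same range, and the log2 fold change was 0.018 (95% interval -0.31 to 0.35, adjusted p = 0.948 from limma). The glycine carrier SLC6A9 (GlyT1) had 33.4, 55.1, 64.3 and 41.0 in High A4 and 89.4, 67.7, 48.7 and 35.5 in Control. The groups overlapped, and its log2 fold change was -0.28 (95% interval -0.93 to 0.38). The taurine carrier SLC6A6 had 48.2 ± 14.0 in High A4 cows and 45.7 ± 8.07 in Control cows (SD with n = 4 per group, log2 fold change 0.052), with a sign that turned under each other scaling of the arrays.

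A pair of dim SLC6 genes passed without the noise filter. SLC6A15, a carrier of branched-chain amino acids and proline known from brain, had 32.7, 21.0, 41.9 and 28.6 in High A4, against 16.7, 16.3, 13.6 and 10.4 in Control. All High A4 cows were above all Control cows, and the log2 fold change was 1.10 (standard error 0.23, adjusted p = 0.0126 from limma without the noise filter). Its call was lost with quantile normalization (adjusted p = 0.0661), an offset of 50 (adjusted p = 0.0544) and the analysis of variance (adjusted p = 0.0721). SLC6A14, a carrier of neutral and cationic amino acids, had 36.9, 51.8, 67.3 and 77.8 in High A4, against 20.9, 27.2, 28.5 and 34.1 in Control. The groups did not overlap, and the log2 fold change was 1.04 (standard error 0.24, adjusted p = 0.0208 from limma without the noise filter). Its call was lost without High A4 replicate 3, Control replicate 1 or Control replicate 2 (adjusted p 0.0625, 0.0637 and 0.0565), and with quantile normalization, cyclic loess, an offset of 50 and the analysis of variance (adjusted p 0.0819, 0.0846, 0.0606 and 0.0949). SLC6A16 had a log2 fold change of 0.49 with an adjusted p of 0.162. The other 12 SLC6 genes, among them the carriers of monoamines, proline and GABA, had log2 fold changes between -0.20 and 0.45 and unadjusted p of 0.0841 or more.

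SLC36 and SLC43 held few genes and no call. SLC36A1 (PAT1), a proton-coupled carrier of lysosomes and the cell surface, had 92.4, 110.0, 73.7 and 100.4 in High A4 and 130.0, 121, 118 and 71.0 in Control (log2 fold change -0.20, adjusted p = 0.578 from limma). Control replicate 4 was the lowest of all 8 cows. SLC36A4 lay just below the threshold at 83.8 ± 30.5 in High A4 cows and 87.7 ± 15.0 in Control cows (SD with n = 4 per group, log2 fold change -0.12). SLC36A3 had a log2 fold change of 0.36 with an adjusted p of 0.178, or -0.027 with quantile normalization, and SLC36A2 had a log2 fold change of 0.27. SLC43A2 (LAT4), which lets large neutral amino acids pass without exchange, had 1817, 1707, 1440 and 1343 in High A4 and 1459, 1432, 1589 and 1026 in Control. The High A4 cows reached higher and Control replicate 4 was lowest, and the log2 fold change was 0.20 (standard error 0.17, 95% interval -0.18 to 0.58, adjusted p = 0.482 from limma). SLC43A1 (LAT3) had a log2 fold change of -0.11, and SLC43A3, which is known to carry purine bases, had -0.16.

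**Figure D3:**
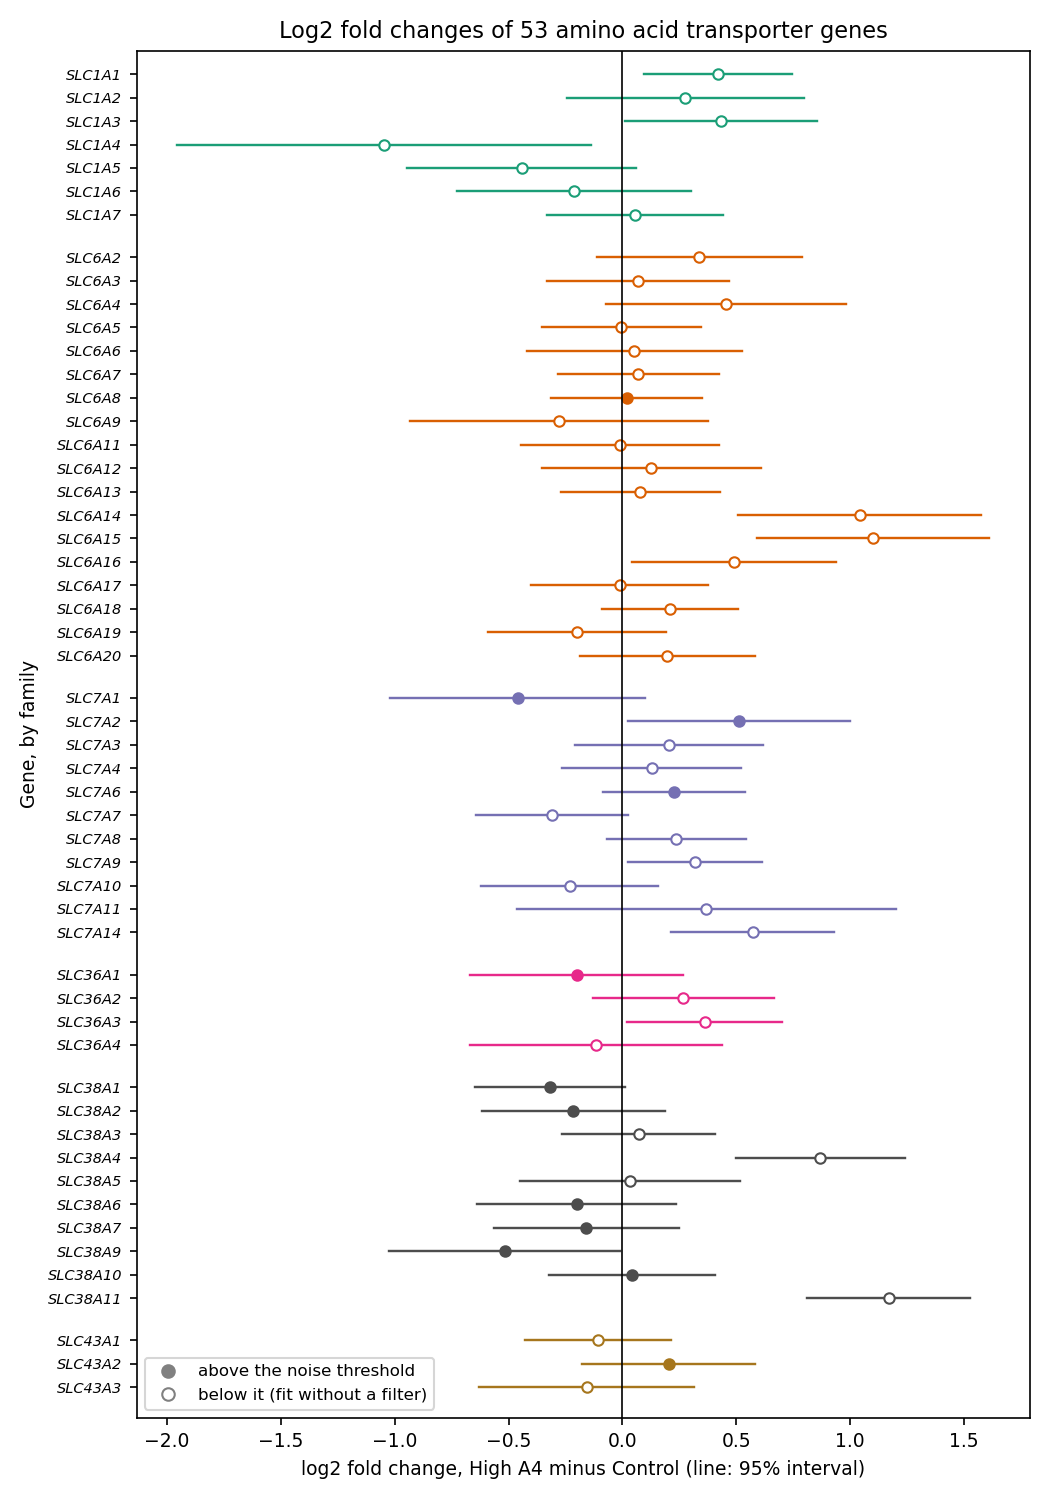
Log2 fold change (High A4 minus Control, horizontal axis) of the 53 genes by family, with 95% intervals from limma, filled points for the 12 genes above the noise threshold and open points for the 41 below it. The filled points have intervals that reach or lie near 0, and the open points farthest to the right are SLC38A11, SLC6A15, SLC6A14 and SLC38A4.

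By family, the median log2 fold change was 0.055 in SLC1, 0.075 in SLC6, 0.23 in SLC7, 0.075 in SLC36, -0.062 in SLC38 and -0.11 in SLC43. These medians mix dim and bright genes in unequal shares, from 7 of 7 below the threshold in SLC1 to 4 of 10 in SLC38. Below the threshold alone they were 0.055, 0.079, 0.22, 0.27, 0.47 and -0.13 in the same order. Above it alone they were 0.018 in SLC6, 0.23 in SLC7, -0.20 in SLC36, -0.21 in SLC38 and 0.20 in SLC43. Over the 53 genes the median was 0.070, with 33 positive and 20 negative values, and over all 26773 probe sets it was -0.0063. With quantile normalization the medians of SLC1, SLC6, SLC36 and all 53 genes were below 0 (-0.17, -0.0034, -0.096 and -0.041), and with median centring and cyclic loess those of SLC1 and of all 53 genes were. Over the 41 genes below the noise threshold the median was 0.13 and 68.3% of the values were positive, where the median of all 16653 probe sets below the threshold was 0.11 and 63.6% were positive. The median log2 deviation of the 41 genes from the Control mean was 0.26, 0.29, 0.24 and -0.11 in the 4 High A4 cows. All 16653 probe sets below the threshold had the same signs there, at 0.20, 0.16, 0.15 and -0.016.

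Calls below the threshold were about as frequent among the transporters as among all dim probe sets. Without the noise filter, 5 of the 41 genes (12.2%) were higher in High A4 at an adjusted p under 0.05, and so were 12.2% of all probe sets below the threshold. At an unadjusted p under 0.05, 10 of the 41 (24.4%) were higher, where the background was 22.4%, and 1 (2.44%) was lower, where it was 5.18%. Groups without overlap were found in 7 of the 41 (17.1%), all higher, where the background was 16.2%, and in 0 were all High A4 cows lower, where it was 2.85%. With quantile normalization 1 of the 5, SLC38A11, passed (background 6.23%), and with cyclic loess SLC38A11, SLC38A4 and SLC6A15 did (background 7.36%). SLC38A11 passed under each of the 16 alternatives run without the filter. Intensities of the 5 genes, 10.03 to 77.8 over all 8 arrays, lay in the range that the study's methods leave out as noise.

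**Figure D4:**
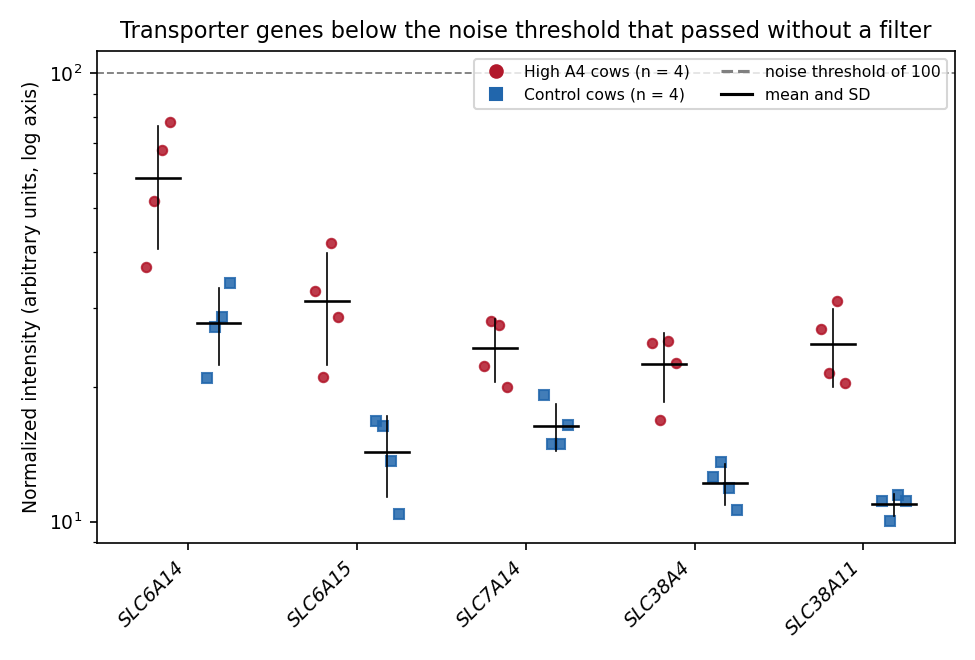
Normalized intensity (log axis, arbitrary units) of the 5 genes below the noise threshold that passed in the fit without a filter, with a point for each cow in order of replicate number, the 4 High A4 cows left of the 4 Control cows, means as horizontal bars and SDs as vertical lines. In each gene the High A4 cows lie above the Control cows, and all points are under the dashed line at 100.

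Dim transporters, like dim probe sets in general, had mostly positive log2 fold changes. For mean intensities of 16 to 32, 17 transporters had a median log2 fold change of 0.28 and all 5362 probe sets of that range 0.18. Between 32 and 64 it was 0.071 over 17 transporters and 0.079 over all 5231. Between 64 and 128 it was -0.14 over 6 transporters and -0.12 over all 3872. From 128 upward each range held only 3 transporters, with medians of 0.018, 0.042 and -0.22 from the dimmest range to the brightest, where all probe sets of these ranges had -0.18, -0.17 and -0.084.

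**Figure D5:**
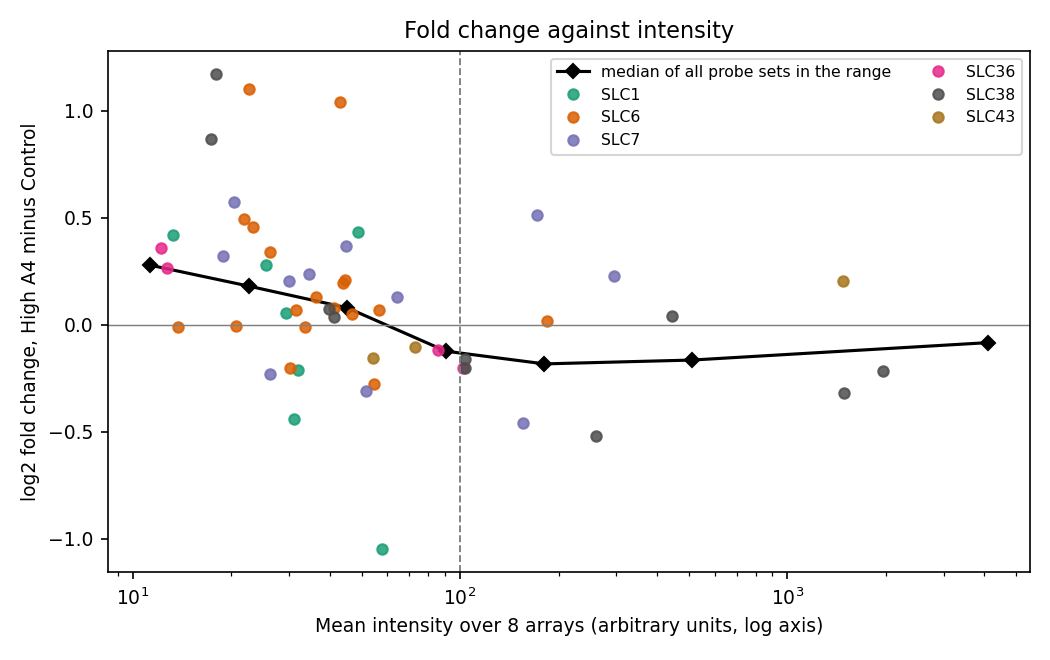
Log2 fold change (High A4 minus Control) of the 53 genes against their mean intensity over 8 arrays (log axis, arbitrary units), coloured by family, with the median of all probe sets in each of 7 intensity ranges as black diamonds at the middle of the range. The dashed line is the noise threshold of 100. The black line runs from 0.28 at the dimmest range to -0.18 between 128 and 256 and ends at -0.084 in the brightest range.

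Genes around the transporters showed no call above the threshold. Of 6 measured heavy chains and trafficking partners 3 were above it, and 0 of these rose or fell, with SLC3A2 alone of the 3 at an unadjusted p under 0.05. CLTRN, which brings SLC6 carriers to the membrane in kidney, had a log2 fold change of 0.11. Of 11 other measured amino acid and peptide carriers 4 were above it, and 0 of these rose or fell, with SLC7A5 alone of the 4 at an unadjusted p under 0.05. Of the 4, 2 were above it through the Control mean only, SLC7A5 among them, which set their negative sign. Below it, without the noise filter, the lysosomal cystine carrier CTNS had 74.5, 61.1, 65.0 and 68.6 in High A4, against 93.9, 115, 92.0 and 88.7 in Control (log2 fold change -0.53, adjusted p = 0.0394 from limma). Its groups did not overlap, and being lower at an adjusted p under 0.05 was seen in 1.12% of all probe sets below the threshold. The vesicular glutamate carrier SLC17A6 was higher (log2 fold change 0.74, adjusted p = 0.0284), where 12.2% of these probe sets were, and its relative SLC17A8 (0.54, adjusted p = 0.0768) did not pass, though its groups did not overlap. The calls of CTNS and SLC17A6 were not followed through the alternative settings.

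Of 25 measured genes of amino acid sensing upstream of mTORC1 and of the kinase GCN2, 19 were above the threshold, and 0 rose or fell in limma. DEPDC5 and NPRL2, subunits of the GATOR1 complex that restrains mTORC1, had an unadjusted p under 0.05, with log2 fold changes of -0.41 and -0.39 (adjusted p = 0.13 and 0.196 from limma), and 17.1% of all probe sets tested were lower by this measure. The third subunit, NPRL3, was below the threshold at 0.066. The median of the 19 was -0.20 and 18 were negative, where the median of all probe sets tested was -0.16 and 74.3% were negative. ATF4, a transcription factor known to raise amino acid carriers such as SLC7A11 and SLC7A5 under amino acid shortage, had 653, 536, 685 and 783 in High A4, against 1178, 991, 711 and 725 in Control. Control replicates 1 and 2 were the highest cows here too, and the log2 fold change was -0.42 (standard error 0.19, 95% interval -0.85 to 0.013, adjusted p = 0.239 from limma).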

How the data were processed

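Gene expression was measured in granulosa cells on Affymetrix Bovine Gene 1.0 ST arrays, with 4 arrays of High A4 cows and 4 of Control cows assigned by their titles. The authors deposited normalized linear intensity values. Their normalization is unsettled: Robust Multi-Array Averaging stands in the paper, GCRMA (with Affymetrix Expression Console) in the submitters' processing notes. The sources used here give no tool version, array annotation or batch.

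The values were log2 transformed with no offset. The test was limma 3.58.1 (R 4.3.3) over probe sets whose mean exceeded 100 in High A4 or in Control, adjusted by Benjamini-Hochberg at 0.05, and it was checked on simulated data. Genes under 100 were read from the same fit over every probe set, and their alternatives were chosen after seeing the data. Symbols of the platform table were matched to RefSeq (ARS-UCD2.0). The alternatives changed the filter (none, or a mean of all 8 arrays above 100), the scaling (median, quantile, cyclic loess), the offset (50), the variance model (trend and robust prior, weights per array, plain analysis of variance, replicate block), the SLC38A9 probe set and the cows included.

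The transporter genes and the lists were chosen with earlier results of these data known. By rule the text names transporter genes with an unadjusted p under 0.05 or groups without overlap, genes fixed by symbol, SLC3A2, SLC7A5 and pathway genes past an adjusted p of 0.05. SLC1A2, SLC1A6, SLC1A7, SLC6A8, SLC7A4, SLC7A10, SLC36A2, SLC38A6, SLC3A1, SLC17A8, ATF4, CLTRN, DEPDC5, NPRL2, NPRL3 and the markers were added after their values were seen. Promoter motifs were not analysed here.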

Additional observations from a re-analysis of the deposited data

Results flagged for a closer look

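In 3 of the 66 groups of 4 cows looked at (33 named genes in High A4 and in Control), a cow stood apart from the rest of its group by more than Dixon's limit, where chance flags about 1 in 20 groups. All 3 were Control replicate 4, as the lowest cow: SLC1A5 at 23.7, SLC36A1 at 71.0 and SLC38A10 at 344. Transporter genes outside the 33 were not looked at in this way, and some of them had another cow apart. For SLC7A4, High A4 replicate 4 was at 48.5 and the other High A4 cows at 72.7 to 74.5. For SLC7A10, Control replicate 1 was at 39.7 and the other Control cows at 24.1 to 25.5.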

How the results depend on the processing

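No transporter gene above the noise threshold passed an adjusted p under 0.05 under any other scaling, variance model, offset, filter on the mean of 8 arrays or left-out cow. Without the filter 5 passed, all dim and higher. That count of 5 was 1 with quantile normalization, 3 with cyclic loess, 2 with an offset of 50 and 2 with the analysis of variance, and between 3 and 5 with 1 cow left out, lowest without High A4 replicate 3, Control replicate 1 or Control replicate 2. The count of lower genes without the filter was 0 to 1 with 1 cow left out, with SLC1A4 passing without Control replicate 4. By the study's criterion, genes higher numbered 1 with quantile normalization, 1 with cyclic loess, 1 with array weights and 4 without the filter, and genes lower 1 with median centring, 1 with array weights and 1 without the filter. With 1 cow left out each count was 0 to 1.

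The median of all probe sets tested, -0.16, was -0.24 with median centring, -0.035 with quantile normalization and -0.013 with cyclic loess. Family medians moved by more than the spread between cows in SLC1 (-0.17 with quantile normalization, -0.15 with cyclic loess), SLC7 (0.065, 0.082, and 0.087 with an offset of 50; above the threshold alone 0.38 and 0.40) and SLC36 (-0.096 with quantile normalization, -0.0043 with the offset). The median of all 53 genes was -0.041 with quantile normalization, and that of the 12 genes above the threshold was -0.26 to -0.028 with 1 cow left out, nearest to 0 without High A4 replicate 1. The cause of these shifts was not tested.

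No gene whose sign turned had passed. With median centring SLC6A6 was -0.022, SLC38A3 -0.0024, SLC38A5 -0.039 and SLC38A10 -0.031. With quantile normalization SLC6A6 was -0.040, SLC7A3 -0.012, SLC7A9 -0.022, SLC36A3 -0.027, SLC38A3 -0.074 and SLC38A5 -0.10. With cyclic loess SLC6A6 was -0.0099, SLC38A3 -0.039 and SLC38A5 -0.069, and with array weights SLC6A6 was -0.081 and SLC38A10 -0.11. With 1 cow left out the ranges were -0.13 to 0.17 for SLC6A6, -0.018 to 0.67 for SLC7A11, -0.32 to 0.046 for SLC36A4, -0.010 to 0.16 for SLC38A3, -0.12 to 0.17 for SLC38A5, -0.067 to 0.16 for SLC38A10 and -0.33 to 8.36e-05 for SLC43A3.

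Same-numbered cows are different animals, and the deviations of same-numbered cows from their group means correlated at 0.19, -0.22, -0.11 and 0.20. The sources give no batch, and whether same-numbered arrays shared one was not tested. With the replicate number as a block 0 transporter genes passed above the threshold and 4 without the filter, where SLC7A14 had an adjusted p of 0.102.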

Other observations

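In 16 of the 53 transporter genes (30.2%), Control replicates 1 and 2 were both above Control replicates 3 and 4, where this order was seen in 18.4% of all probe sets. This order was looked for after the values of SLC1A4 and SLC7A1 had been seen, and genes are not independent replicates. The 16 were SLC1A4, SLC1A6, SLC6A9, SLC6A11, SLC6A12, SLC6A15, SLC7A1, SLC7A4, SLC7A6, SLC7A10, SLC7A11, SLC36A1, SLC38A1, SLC38A4, SLC38A5 and SLC38A7. Of these only SLC7A1, SLC7A6, SLC36A1, SLC38A1 and SLC38A7 were above the noise threshold. SLC6A15 and SLC38A4 were higher in High A4 in the fit without the filter. Outside the group, SLC7A5 showed this order too. The 2 pairs of Control cows do not differ in any label.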
